A study of Mus musculus with 23 samples.

Results

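Dual-specificity phosphatases remove phosphate from both the threonine and the tyrosine of an activated MAP kinase and so switch it off. The 8 genes described here were matched by symbol, and they are 8 of the 21878 genes in the expression tables of sorted mouse neutrophils. Dusp1, Dusp2, Dusp4 and Dusp5 encode the inducible phosphatases of the nucleus, and Dusp6 encodes the cytoplasmic phosphatase that prefers ERK. The products of Dusp10 and Dusp16 prefer JNK and p38, and Dusp3 encodes a small phosphatase without the MAP kinase binding domain of the others. Several of them are transcribed in response to the kinases they inactivate, as delayed or immediate early genes, and their mRNAs are typically short-lived. In myeloid cells Dusp1 is known as a brake on p38, JNK and cytokine production, and Dusp2 is known from activated leukocytes.

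Bulk RNA-Seq had been done on CD45+CD11b+Ly6G+ neutrophils that were sorted by flow cytometry from young adult mice without challenge (C57BL/6J is the stock named in the methods, and the labels give no strain). In the tissue comparison, bone marrow (BM), peripheral blood (PB) and perfused lung of wild-type (WT) mice gave 3 libraries each. In the Piezo1 experiment, PB and lung of WT and Piezo1-cKO mice gave 2 libraries each. Piezo1-cKO mice carried Piezo1 fl/fl with Vav1-iCre, whose promoter is active in all blood cell lineages, so that neutrophils were not the only cells with the deletion, and the labels do not say whether the WT mice of that experiment carried the floxed alleles. All of these mice were otherwise untreated, and PB and lung cells, unlike those of BM as far as the methods state, were enriched by negative selection before the sort. The methods describe a warm collagenase digestion for lung tissue and none for blood or marrow, so tissue and preparation cannot be told apart in any of the tissue comparisons. The labels do not say which animals separate the replicate libraries. The study's legends give mice as the replicates of the tissue comparison and were not found to say so for the Piezo1 libraries, whose p-values measure the spread between libraries, which may be technical. Levels are given as FPKM, the fragments on a gene scaled by the length of its model and by library size, which allows levels to be compared between genes.

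The deposited values were whole multiples of 1 read per gene, within 0.02 reads, in 100% of genes above 0, and reads were recovered on this basis. A gene above 0 in 1 library meets this in any case, and one in few libraries can meet it because many step sizes were tried. Of the genes that met it, 15505 were above 0 in at least 3 libraries. The tissue libraries held between 16502142 and 19330763 assigned reads, and those of the Piezo1 experiment between 9621002 and 15034628. Replicates differed by more than counting noise in every group, with a chi-square per gene of 1.90 to 4.77 for each pair except the pairs with the third PB library of the tissue comparison, which stood apart from the other 2 (24.6 and 40.9). Each count of members called with this library was the same without it. Neutrophil markers were abundant in every group, with Ly6g at a mean of 54.5 FPKM in lung to 772 FPKM in BM. Of the other cell types checked, endothelial and B cell lists summed to at most 0.945 FPKM in any library, and T and NK cell, platelet and eosinophil lists to at most 6.53 FPKM. The platelet list was higher in lung than in PB of the Piezo1 experiment (2.31 to 3.69 against 0.545 to 1.11 FPKM). In the tissue comparison it was highest in BM (3.65 to 4.05 FPKM). The epithelial list was also higher in lung than in PB, at 6.03 to 6.68 FPKM in WT and 3.31 to 4.21 FPKM in Piezo1-cKO against at most 0.705 FPKM in PB there. In the tissue comparison it was at 1.52 to 2.87 FPKM in lung, 0.221 to 0.319 FPKM in PB and 2.08 to 2.82 FPKM in BM. Scgb1a1, a secretoglobin of airway epithelium, was its gene called in WT lung over WT PB. Of 8 macrophage genes, which summed to 24.1 to 49.9 FPKM, 4 were called lower and 1 higher both in PB and in lung against BM. Of 5 monocyte-associated genes, which summed to 159 to 787 FPKM, Ccr2, Cx3cr1 and Ms4a4c stayed under 1 FPKM in every library, while the receptor gene Csf1r stood at 42.3, 133 and 97.4 FPKM and Ly6c2 at 660, 109 and 63.0 FPKM in BM, PB and lung. The part of these transcripts in the members' values was not tested. Erythroid markers stood out in Piezo1-cKO PB, where 6 genes summed to 1011 to 1136 FPKM against 24.8 to 26.7 FPKM in WT PB and at most 5.12 FPKM elsewhere. Piezo1 itself had 3 to 10 reads in each of the 8 libraries of the Piezo1 experiment (0.0301 to 0.0758 FPKM), too few to tell the genotypes apart, and the whole gene model does not single out the deleted exons, so the genotype labels could not be checked this way.

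The proximal promoters of the 5 members with the highest levels are shown because all of them were higher in PB than in BM and then parted between PB and lung. Each stretch is the 250 bases before 1 annotated transcription start of the gene, read 5′ to 3′ on its strand, from RefSeq on GRCm38.p6. Other starts of the same gene were not searched. Of the members, 7 of 8 matched an entry and Dusp4 did not. Capitals mark the cAMP response element (CRE) TGACGTCA, its half-site TGACG, the CArG box bound by serum response factor, the AP-1 letters TGANTCA and the TATA letters TATAAA, each searched on both strands. A CRE contains a half-site on each strand.
Dusp1 (chr17:26508473-26508722, minus strand) holds the full CRE 143 to 136 bases before the start and another half-site upstream of it.
Dusp1: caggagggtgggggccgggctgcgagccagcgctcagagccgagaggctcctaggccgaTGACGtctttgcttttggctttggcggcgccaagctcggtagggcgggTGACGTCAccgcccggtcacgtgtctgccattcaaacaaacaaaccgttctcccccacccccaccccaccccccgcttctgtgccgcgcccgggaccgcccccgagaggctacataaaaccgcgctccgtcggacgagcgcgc
Dusp2 (chr2:127335909-127336158, plus strand) holds none of these letters before its start.
Dusp2: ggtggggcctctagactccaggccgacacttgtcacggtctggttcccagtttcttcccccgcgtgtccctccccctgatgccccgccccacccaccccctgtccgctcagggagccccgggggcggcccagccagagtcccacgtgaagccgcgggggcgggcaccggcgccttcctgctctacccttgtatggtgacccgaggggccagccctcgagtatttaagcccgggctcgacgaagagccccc
Dusp5 (chr19:53528895-53529144, plus strand) holds 2 adjoining CArG boxes and a half-site.
Dusp5: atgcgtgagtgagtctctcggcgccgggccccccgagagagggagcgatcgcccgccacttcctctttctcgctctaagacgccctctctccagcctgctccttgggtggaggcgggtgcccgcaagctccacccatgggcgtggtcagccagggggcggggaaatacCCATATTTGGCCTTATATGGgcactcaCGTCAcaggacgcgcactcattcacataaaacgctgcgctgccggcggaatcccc
Dusp6 (chr10:99262981-99263230, plus strand) holds none of them.
Dusp6: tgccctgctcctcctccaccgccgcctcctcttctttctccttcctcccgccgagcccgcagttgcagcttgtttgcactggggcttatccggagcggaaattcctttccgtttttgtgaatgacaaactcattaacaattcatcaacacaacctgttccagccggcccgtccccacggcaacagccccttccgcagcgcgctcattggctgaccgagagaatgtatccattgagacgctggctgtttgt
Dusp16 (chr6:134792629-134792878, minus strand) holds 1 half-site. The gene, with 4 RefSeq transcripts, spans chr6:134715468-134807063, so this window lies inside it, before an internal start.
Dusp16: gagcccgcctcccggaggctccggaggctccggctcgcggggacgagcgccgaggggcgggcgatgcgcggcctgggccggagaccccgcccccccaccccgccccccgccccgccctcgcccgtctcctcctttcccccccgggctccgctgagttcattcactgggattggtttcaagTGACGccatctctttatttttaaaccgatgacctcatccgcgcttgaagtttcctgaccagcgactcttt

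In windows that also take in the first 50 bases of the transcript, the full CRE occurred in 1.79% of 32851 mouse promoters, the half-site in 20.8%, the CArG box in 1.63%, the AP-1 letters in 7.81% and the TATA letters in 13.6%. Among the 7 members with a window, Dusp1 held the full CRE and Dusp5 the CArG boxes, at -82 to -63. Dusp1, Dusp2, Dusp5 and Dusp16 each held at least 1 half-site, that of Dusp2 lying at 6 to 10 after the start, whereas Dusp3, Dusp6 and Dusp10 held none. The Dusp3 window, like that of Dusp16, lies inside a gene with 4 RefSeq transcripts. No AP-1 or TATA match, NF-kB site (4.51% of promoters) or ETS core CCGGAA (14.9%) was found in a member's window, which says only that these letters were not there. These matches are a description of letters, and no binding was measured.

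**Figure D1:**
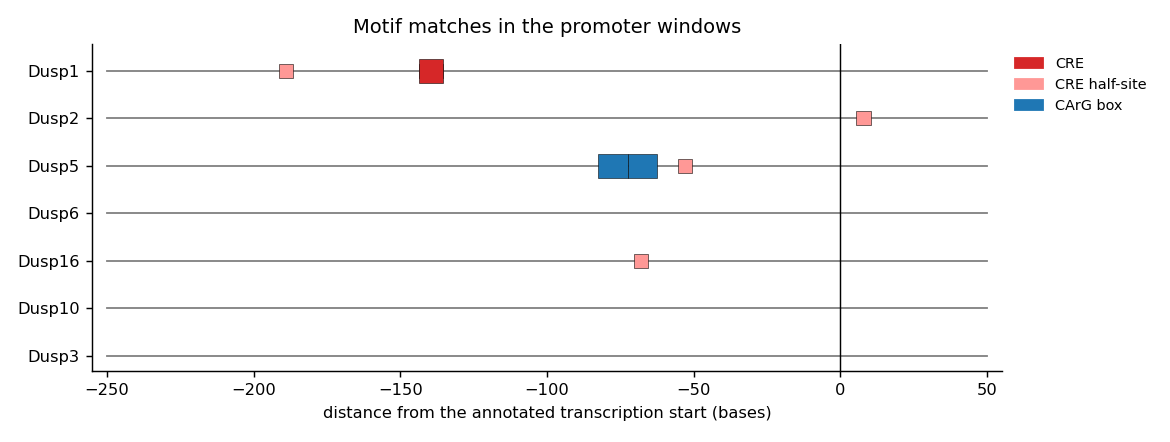
Motif matches in the promoter windows of 7 members, by distance in bases from the annotated transcription start; boxes are CRE, CRE half-site and CArG matches on either strand. Dusp1 carries the full CRE near -140, Dusp5 a pair of adjoining CArG boxes at -82 to -63, and the windows of Dusp6, Dusp10 and Dusp3 are empty.

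Dusp1, the archetypal immediate early MAP kinase phosphatase, was the most abundant member in every library. In the tissue comparison it stood at 353, 351 and 353 FPKM in BM, at 3783, 3796 and 3713 FPKM in PB, and at 4508, 4560 and 4503 FPKM in lung. The BM libraries lay far below the others, and PB and lung did not overlap either. In bulk libraries, fewer cells with a transcript and less of it per cell cannot be told apart. Dusp1 alone made up 84.3% ± 0.049 (SD, n = 3) of the summed FPKM of the 8 genes in BM, 94.97% ± 0.22 in PB and 85.1% ± 0.225 in lung. The sum itself was 418 ± 1.57 FPKM in BM, 3963 ± 54.7 FPKM in PB and 5313 ± 33.4 FPKM in lung.

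Dusp2, a nuclear phosphatase of activated leukocytes, had the widest range of the members. It was at 0.773, 0.416 and 0.774 FPKM in BM, at 17.2, 18.1 and 13.8 FPKM in PB, and at 319, 334 and 338 FPKM in lung. The 3 groups did not overlap and rose in the order BM, PB, lung. Dusp5, whose product binds and inactivates ERK in the nucleus, followed the same order with 4.87, 6.002 and 6.22 FPKM in BM, 35.0, 27.9 and 31.2 FPKM in PB, and 249, 245 and 250 FPKM in lung. Its gene model in these tables was 1155 bases long against 2473 bases for the longest GENCODE vM21 transcript and was a multiple of 3, a coding length, so its level is set against the other members with that limit. Dusp16, a phosphatase of JNK and p38, was at 1.34, 1.54 and 1.68 FPKM in BM, 13.3, 14.0 and 13.3 FPKM in PB, and 161, 164 and 164 FPKM in lung, again without overlap.

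Dusp6, the cytoplasmic ERK phosphatase, had another order. It was at 58.2, 57.2 and 56.8 FPKM in BM, at 143, 141 and 128 FPKM in PB, and at 45.4, 45.0 and 47.7 FPKM in lung. PB was highest and lung lowest, with no overlap between the groups. Dusp6 was the second most abundant member in BM and in PB and the fifth in lung, behind Dusp1, Dusp2, Dusp5 and Dusp16.

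The remaining members were close to the limit of detection. Dusp4, a nuclear phosphatase related to Dusp1, was at 1.39, 1.39 and 1.70 FPKM in lung (58 to 68 reads), at 0.186, 0.0447 and 0.133 FPKM in PB and at 0, 0 and 0.0673 FPKM in BM. Lung stood above both other groups, which overlapped each other. Dusp10, a stress kinase phosphatase, ranged from 0.0196 to 0.252 FPKM over the 9 libraries (1 to 12 reads), and Dusp3 from 0.0223 to 0.374 FPKM (2 to 30 reads). A library without a read of a gene may still hold a level worth 3 reads (0.155 to 0.182 RPM, a gene's reads scaled to library size), and such limits and the intervals on read ratios below cover counting error only.

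**Figure D2:**
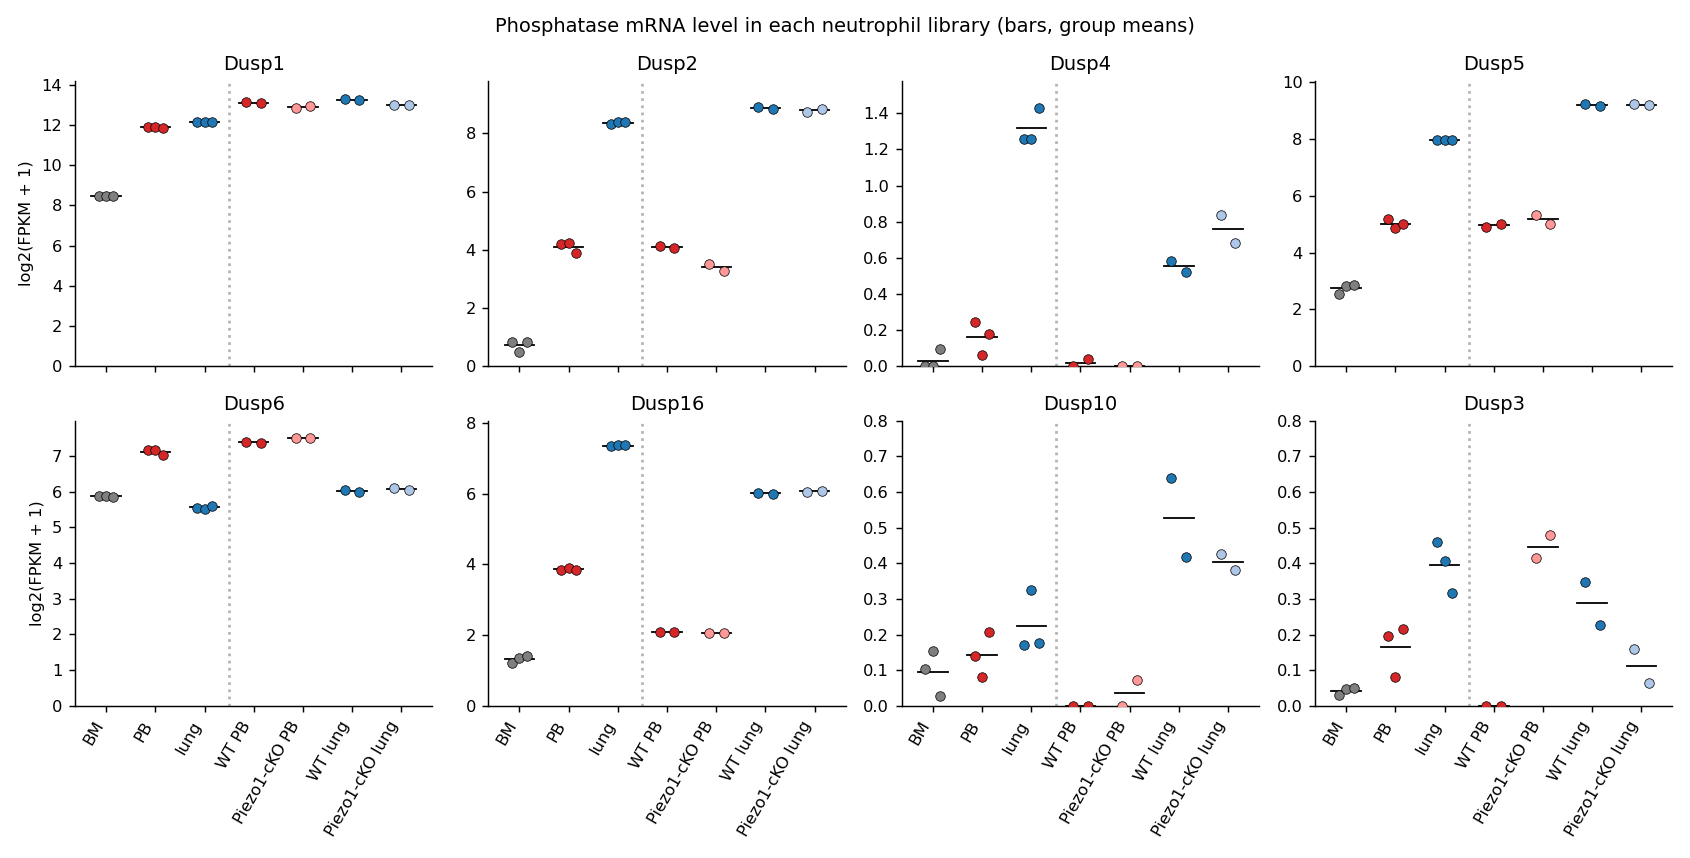
Level of each member, as log2(FPKM + 1), in each library of the tissue comparison (left of the dotted line) and the Piezo1 experiment (right); points are libraries, bars group means, and the scale differs between panels. Dusp2, Dusp5 and Dusp16 climb from BM through PB to lung, Dusp6 peaks in PB, Dusp1 is high in PB and lung, and Dusp10 and Dusp3 stay under 1 FPKM in every library.

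PB over BM was the comparison in which all of the members that could be tested moved one way. Of 8 members, 5 passed the filter on low values, which asked for 1 FPKM or more in 3 or more libraries. All 5 rose by limma-trend on log2(FPKM + 1) at a Benjamini-Hochberg adjusted p below 0.05 with a log2 fold change above 1, where 7.85% of all genes were called higher. Dusp2 met the filter through PB alone, with every BM library under 1 FPKM, so 4 of these calls, those of Dusp1, Dusp5, Dusp6 and Dusp16, did not depend on that. Dusp1 rose by 3.41 ± 0.051 (SE, n = 3 libraries per group; adjusted p = 7.55e-09), which was a 10.7-fold ratio of mean FPKM. Dusp2 rose by 3.39 ± 0.13 (adjusted p = 1.71e-07), a ratio of 25.0. Dusp16 rose by 2.53 ± 0.077, Dusp5 by 2.27 ± 0.11 and Dusp6 by 1.24 ± 0.057. The log2 values of Dusp1 and Dusp2 were close although the ratios were not, because the added 1 FPKM shrinks the change of low genes. The median of all 8237 genes tested was -0.12.

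Lung over PB separated the members. Of 6 members tested, 4 were called higher (Dusp2, Dusp16, Dusp5 and Dusp4), against 7.75% of all genes. Dusp6 was called lower, against 19.5% of all genes. Dusp2 rose by 4.26 ± 0.094 on the log2 scale (adjusted p = 9.05e-09), a 20.2-fold ratio of mean FPKM, Dusp16 by 3.50 ± 0.049 (12.0-fold) and Dusp5 by 2.95 ± 0.079 (7.90-fold). Dusp6 fell by 1.56 ± 0.060 on the log2 scale (adjusted p = 1.37e-07), with PB 2.99 times the lung mean. Dusp1 differed by only 0.27 ± 0.051 (adjusted p = 0.00132), under the fold threshold. Dusp4 was tested only because of its lung libraries, so its call carries no weight of its own. Its reads, 184 in lung and 16 in PB, gave a ratio per assigned read of 12.4 (95% exact interval 7.43 to 22.1).

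The scale of this comparison matters for Dusp6 and Dusp1. The median gene lay 0.54 lower in lung than in PB on the log2 scale, and the split of called genes was 587 higher and 1476 lower. With each library rescaled by its median ratio, the split became 931 higher and 466 lower, Dusp6 fell by 0.94 and missed the fold threshold, and Dusp1 was at 0.89. Dusp2, Dusp5 and Dusp16 passed both thresholds under each alternative tried.

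In lung over BM, 5 of 6 tested members rose, against 9.86% of all genes called higher, and none was called lower, against 36.0%. Dusp2 and Dusp4 met the filter through lung alone, with every BM library under 1 FPKM, so only 3 of these calls, those of Dusp1, Dusp5 and Dusp16, did not depend on that. Dusp2 rose by 7.65 ± 0.081 on the log2 scale (adjusted p = 2.04e-13), with a 505-fold ratio of mean FPKM that rests on 13 to 24 reads per BM library. Dusp16 rose by 6.03 ± 0.053 (107-fold), Dusp5 by 5.22 ± 0.068 (43.5-fold) and Dusp1 by 3.68 ± 0.015 (12.8-fold). Dusp6 was at -0.31 ± 0.032 (adjusted p = 5.70e-06), under the fold threshold. Its direction depended on the scaling: the median gene lay 0.70 lower in lung, and after rescaling by the median ratio Dusp6 was at 0.51 and the split of called genes went from 812 higher and 2965 lower to 1582 higher and 1171 lower. Dusp4 had 184 reads in lung and 3 in BM, a ratio per assigned read of 68.7 (95% exact interval 23.1 to 336).

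The low members followed by their reads alone. Dusp3 had 75 reads in lung, 31 in PB and 8 in BM, so that lung exceeded PB 2.61-fold (1.69 to 4.10) and BM 10.5-fold (5.06 to 25.2) per assigned read. Dusp10 had 24, 16 and 11 reads. Its lung over PB ratio was 1.62 (0.823 to 3.25), which was not a detectable difference in these libraries. Its lung over BM ratio was 2.44 (1.15 to 5.52). In the Piezo1 experiment, Dusp10 did differ between lung and PB. WT lung had 37 reads and WT PB had 0, with a lower exact limit of 8.99 on the ratio. Piezo1-cKO lung had 26 reads and Piezo1-cKO PB had 2, a ratio of 10.7 (2.67 to 92.7).

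The Piezo1 experiment gave the lung and PB comparison again in other libraries. In WT mice, Dusp2 was at 16.7 and 15.8 FPKM in PB and at 481 and 455 FPKM in lung, Dusp5 at 28.9 and 31.3 FPKM and at 594 and 565 FPKM, and Dusp16 at 3.28 and 3.30 FPKM and at 64.2 and 62.5 FPKM. All 3 rose, by 4.76 ± 0.043, 4.22 ± 0.045 and 3.91 ± 0.055 on the log2 scale (n = 2 libraries per group), out of 5 members tested and against 7.50% of all genes called higher. Dusp6, at 168 and 163 FPKM in PB and 64.6 and 62.2 FPKM in lung, fell by 1.37 ± 0.035 on the log2 scale, against 26.5% of genes called lower, and after rescaling it fell by 0.65. Dusp1 was at 8854 and 8610 FPKM in PB and 9828 and 9756 FPKM in lung, a log2 fold change of 0.17 ± 0.015.

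The directions in Piezo1-cKO mice were those of WT for the 4 members called. Dusp2 rose by 5.39 ± 0.090, Dusp5 by 4.04 ± 0.097 and Dusp16 by 3.998 ± 0.062 on the log2 scale in lung over PB, against 7.93% of genes called higher, and Dusp6 fell by 1.43 ± 0.043, against 23.0% called lower (by 0.81 after rescaling). Dusp1 was at 0.09 ± 0.039 (adjusted p = 0.0763).

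Levels were not the same in the 2 experiments, which were separate sets of libraries and were not tested against each other. Dusp1 in WT PB and lung was at 8610 to 9828 FPKM in the Piezo1 experiment and at 3713 to 4560 FPKM in the tissue comparison. Dusp5 in lung was at 565 to 594 against 245 to 250 FPKM. Dusp16 went the other way, at 62.5 to 64.2 against 161 to 164 FPKM in lung and at 3.28 to 3.30 against 13.3 to 14.0 FPKM in PB. The order of the members in WT lung was therefore Dusp1, Dusp5, Dusp2, and then Dusp6 and Dusp16, which overlapped each other (62.2 to 64.6 and 62.5 to 64.2 FPKM).

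**Figure D3:**
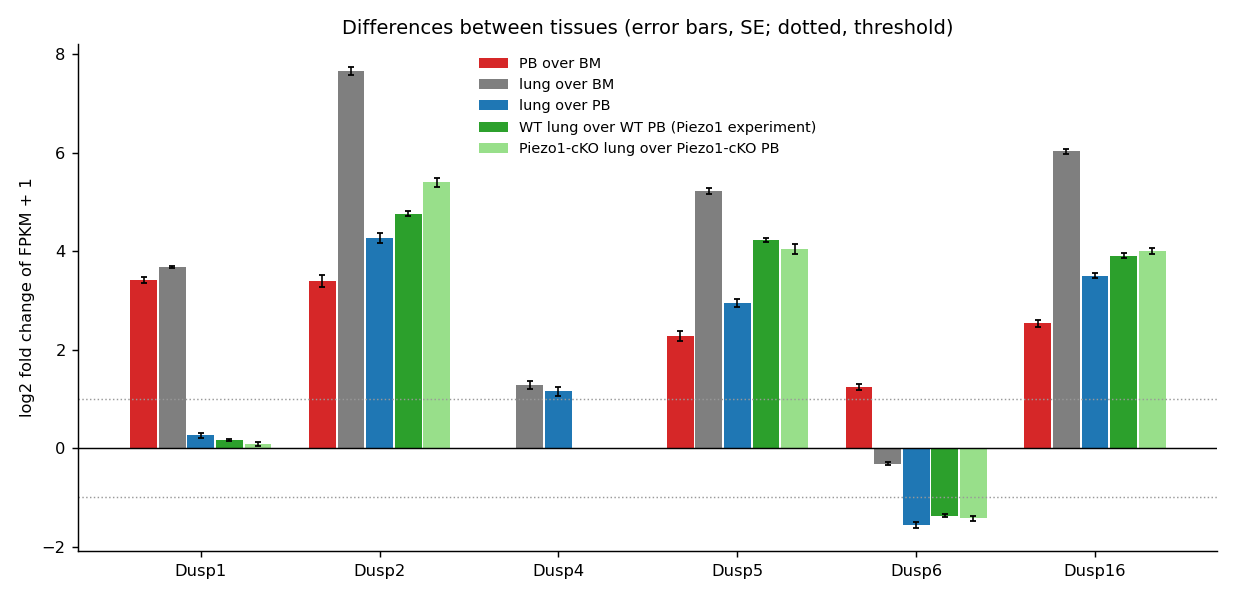
Log2 fold changes of FPKM + 1 between tissues for the 6 members tested, with SE; dotted lines mark the fold threshold and a missing bar a member that did not pass the filter. In all 3 lung over PB comparisons Dusp2, Dusp5 and Dusp16 lie between 2.95 and 5.39, Dusp6 between -1.56 and -1.37 (not past -1 after rescaling by the median ratio) and Dusp1 under 0.3.

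Piezo1 encodes a mechanically gated cation channel that lets calcium into cells, and the Piezo1 experiment asked which genes differ in neutrophils that lack it. None of the 5 members tested passed both limma-trend thresholds in lung, where 0.995% of all genes did, or in PB, where 3.65% did, and none did by limma-voom on the recovered reads. On p alone, adjusted or not, 1 of 5 passed 0.05 in lung and 3 of 5 in PB, but 50.7% and 49.7% of all genes passed on the adjusted p as well. For FPKM as deposited, the members' share is thus no larger than that background in lung and near it in PB. After rescaling by the median ratio, Dusp1, Dusp2 and Dusp5 passed the adjusted p in lung. On that scale 3578 of 6415 genes had an unadjusted p below 0.05 there, so the members' share in lung depends on the scaling.

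In lung, Dusp1 was at 9828 and 9756 FPKM in WT and at 8106 and 8216 FPKM in Piezo1-cKO, a log2 fold change of -0.26 ± 0.013 (95% interval -0.29 to -0.23; adjusted p = 3.97e-05). Dusp2 was at 481 and 455 FPKM in WT and 429 and 454 FPKM in Piezo1-cKO, or -0.08 (-0.17 to 0.0011). Dusp5 (594 and 565 against 595 and 580 FPKM) was at 0.02 (-0.048 to 0.089), Dusp6 (64.6 and 62.2 against 67.1 and 65.4 FPKM) at 0.06 (-0.028 to 0.15) and Dusp16 (64.2 and 62.5 against 65.0 and 66.9 FPKM) at 0.06 (-0.029 to 0.15). These intervals hold for FPKM as deposited, where the median gene lay 0.093 higher in Piezo1-cKO lung. Under rescaling by the median ratio, Dusp2 moved to -0.20 with an adjusted p of 0.00499, outside its interval. Dusp5 turned to -0.092 with an adjusted p of 0.0386, and Dusp6 and Dusp16 turned to -0.05 each. Over all alternatives Dusp1 lay between -0.38 and -0.25, so it too left its interval.

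In PB, Dusp2 was the member with the largest difference: 16.7 and 15.8 FPKM in WT against 10.5 and 8.60 FPKM in Piezo1-cKO, a log2 fold change of -0.72 ± 0.099 (95% interval -0.95 to -0.48; adjusted p = 0.00153). The difference stayed under the fold threshold. The groups did not overlap, but with 2 libraries each this also held for Dusp1, Dusp3, Dusp6 and Dusp16 in PB, so it does not set Dusp2 apart. Dusp1, at 8854 and 8610 FPKM in WT and 7443 and 7944 FPKM in Piezo1-cKO, was at -0.18 ± 0.042 (adjusted p = 0.0101), and Dusp6, at 168 and 163 against 179 and 180 FPKM, at 0.12 ± 0.042 (adjusted p = 0.0474). Dusp5 was at 28.9 and 31.3 against 38.9 and 31.2 FPKM (0.21, interval -0.037 to 0.45) and Dusp16 at 3.28 and 3.30 against 3.19 and 3.19 FPKM (-0.03, interval -0.25 to 0.18). Erythroid markers moved with genotype in these libraries, as given above, and their part in these values was not tested.

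The genotype difference of Dusp2 differed between lung and PB by 0.63 ± 0.11 on the log2 scale (adjusted p = 0.00219), and it was the only member of 5 for which this interaction passed an adjusted p of 0.05, where 48.2% of all genes did. The 95% intervals of the interaction were -0.18 to 0.017 for Dusp1, -0.47 to 0.095 for Dusp5, -0.18 to 0.061 for Dusp6 and -0.078 to 0.26 for Dusp16.

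The low members differed by genotype in reads too few to pass the filter. Dusp3 was at 0 reads in both WT PB libraries and at 15 and 26 reads in the Piezo1-cKO PB libraries (0.334 and 0.393 FPKM), a ratio per assigned read of 16.2 where WT PB is set to a floor of 3 reads over the group, and with a lower exact 95% limit of 12.6. In lung it went the other way, from 31 reads without the deletion to 11 with it, a ratio of 0.366 (95% exact interval 0.166 to 0.749). Dusp3 in PB thus appeared in the libraries that held the erythroid transcripts, and whether it came with them was not tested. In lung, Dusp4 had 34 reads in WT and 49 in the knockout (ratio 1.49, interval 0.941 to 2.38). Dusp10 had 37 and 26 reads there (ratio 0.726, interval 0.422 to 1.23). Both genes had 0 to 2 reads in all of PB.

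**Figure D4:**
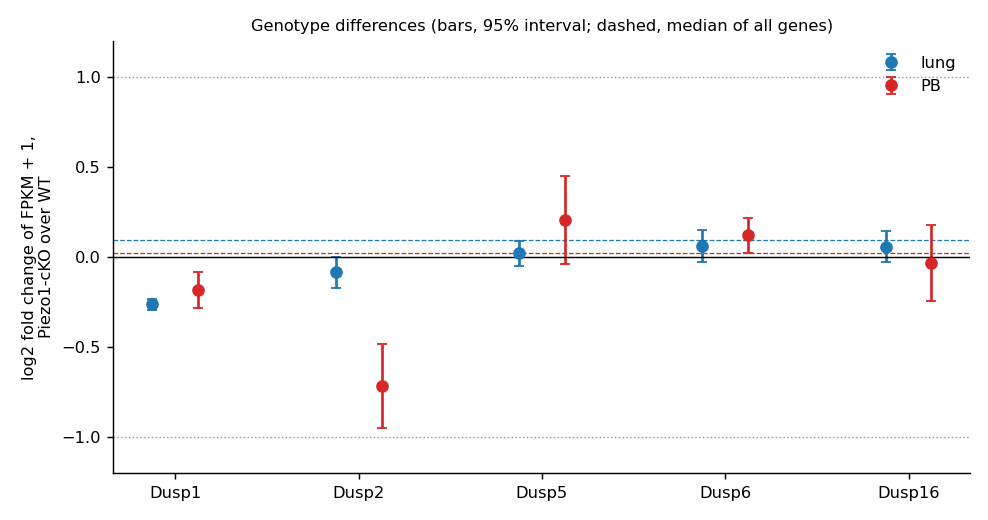
Log2 fold changes of FPKM + 1 for Piezo1-cKO over WT in lung and PB, with 95% intervals, for the 5 members tested; dotted lines mark the fold threshold and dashed lines the median of all genes. Every point lies inside the threshold, and Dusp2 in PB, at -0.72, lies farthest from 0.

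The rest of the pathway was taken from fixed lists and is given by counts, which include genes that met the filter through 1 group alone. Of 12 MAP kinases, 8 were tested in lung over PB, where 1 rose and 2 fell (list median -0.59, median of all genes -0.54). Mapk6, which encodes the atypical kinase ERK3, rose by 3.97 on the log2 scale, from 2.39 ± 0.29 to 51.8 ± 1.10 FPKM (SD, n = 3). Mapk14, which encodes p38 alpha, fell by 1.17 and Mapk3, which encodes ERK1, by 1.02, and after rescaling 2 kinases of the list rose and none fell. In lung over BM, 1 rose and 4 fell of 9 (2 and 2 after rescaling), where 36.0% of all genes were called lower. In PB over BM none rose and 3 fell of 9 (0 and 2 after rescaling), where 1164 of all 8237 genes were called lower. Upstream kinases of the MAP2K and MAP3K tiers were called in 1 of 16 cases in lung over PB, Map3k1 with -1.77, and in 6 of 17 in lung over BM, among them Map2k3, an activator of p38, with 1.66 and Map2k7, an activator of JNK, with -1.64. After rescaling, the split of this list went from 2 higher and 4 lower to 4 and 0 in lung over BM, where Map2k7 was at -0.97 and no longer called, and from 0 and 1 to 2 and 1 in lung over PB.

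Of 10 kinases activated by MAP kinases that were tested in lung over PB, 1 rose and 2 fell, near the shares of 7.75% and 19.5% among all genes. Mapkapk2, the p38 effector kinase MK2, rose by 2.43, from 86.3 ± 6.71 to 469 ± 4.28 FPKM, while Rps6ka1, which encodes the ERK effector RSK1, fell by 1.72. After rescaling, 1 rose and 1 fell. In lung over BM, 1 rose and 4 fell (2 and 3 after rescaling), where 36.0% of all genes were called lower. Of the other feedback genes of the ERK pathway, 4 of 10 in the tables were tested, of which Spry2, an inhibitor of receptor tyrosine kinase signalling, rose by 2.24 in PB over BM and fell by 2.14 in lung over PB, and like Dusp6 it was highest in PB (2.08 ± 0.32, 13.6 ± 1.78 and 2.31 ± 0.31 FPKM in BM, PB and lung).

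Of 3 other MAP kinase phosphatases 2, and of 15 other dual-specificity phosphatases 3, passed the filter in lung over PB. Dusp7, a cytoplasmic ERK phosphatase like Dusp6, was at 6.13 ± 0.42 FPKM in BM, 12.6 ± 0.38 FPKM in PB and 0.98 ± 0.20 FPKM in lung and fell by 2.78 in lung over PB. In WT mice of the Piezo1 experiment it was at -0.82, under the fold threshold. Dusp18 met the filter through PB alone, at 0.12 ± 0.0082, 3.24 ± 0.63 and 0.53 ± 0.14 FPKM in BM, PB and lung, so its PB peak follows from the filter. In lung over PB of the Piezo1 experiment Dusp18 was at -0.87 in WT, under the fold threshold. In Piezo1-cKO it was at -1.26, and at -0.91 after rescaling. Dusp8 and Dusp14 passed the filter through lung alone, at 1.55 ± 0.16 and 1.73 ± 0.073 FPKM.

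Immediate early genes, many of which are induced through ERK, rose in 9 and fell in 1 of 12 tested cases in PB over BM (median 1.83 against -0.12 for all genes) and rose in 10 of 13 in lung over BM (1.92 against -0.70). Egr2 and Egr3 in both comparisons, and Fosl1 in lung over BM, had every BM library under 1 FPKM, which left 7 genes that rose otherwise in each. In lung over PB, 4 rose and 2 fell of 13 (6 and 1 after rescaling), with a median of 0.18. The AP-1 gene Fosl1 rose by 5.05 from under 1 FPKM in every PB library, Phlda1 by 2.84 and Fosb by 1.82, and Atf3 was at 0.42. A list of 5 genes held 4 that encode binders of AU-rich mRNA, which act on short-lived transcripts, and Tnfaip3, a ubiquitin-editing feedback inhibitor of NF-kB. In PB over BM the binders Zfp36, Zfp36l1 and Zfp36l2 rose by 2.37, 2.86 and 1.054 and Elavl1 was at -0.21, and Tnfaip3 rose by 3.44. In lung over PB Tnfaip3 rose by 3.33 while Zfp36l2 fell by 2.05. Among all genes, 7.85% were called higher in PB over BM and 9.86% in lung over BM. In lung over PB 7.75% were called higher and 19.5% lower. Heat shock genes, which respond to handling and temperature, rose in 5 of 8 tested cases in PB over BM and in 3 of 8 in lung over BM. In lung over PB none of 8 rose and 1 fell, near the shares of all genes (2 rose and none fell after rescaling). The 9 of them summed to 234 to 243 FPKM in BM, 365 to 404 FPKM in PB and 298 to 308 FPKM in lung. These lists moved beside the members in libraries that also differed by preparation, and the part of handling in the members' values was not tested.

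In Piezo1-cKO over WT within a tissue, 2 genes of these lists were called, both in PB, where 3.65% of all genes were called. They were 1 of 10 MAPK-activated kinases and 1 of 7 heat shock genes tested. Rps6ka2, which encodes the ERK effector RSK3, fell by 1.18, from 4.43 and 4.51 FPKM to 1.21 and 1.63 FPKM. The mitochondrial chaperonin gene Hspe1 rose by 1.15. No gene of these pathway lists was called in Piezo1-cKO over WT lung, where 0.995% of all genes were called. For the interaction, called on the adjusted p alone, 48.2% of all genes passed. Of these, 2245 were higher and 1402 lower in lung than in PB, and 1686 and 1894 after rescaling. Counts of the lists are given in that order, with those after rescaling in parentheses. They were 4 and 0 of 7 MAP kinases (4 and 0) and 7 and 1 of 13 immediate early genes (4 and 2). MAP2 and MAP3 kinases had 2 and 0 of 14 (2 and 2) and MAPK-activated kinases 3 and 0 of 10 (2 and 2 of 9). Other feedback genes had 2 and 0 of 4 (1 and 0). The list with the AU-rich mRNA binders had 2 and 0 of 5 (2 and 1), and heat shock genes 1 and 3 of 7 (1 and 3).

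**Figure D5:**
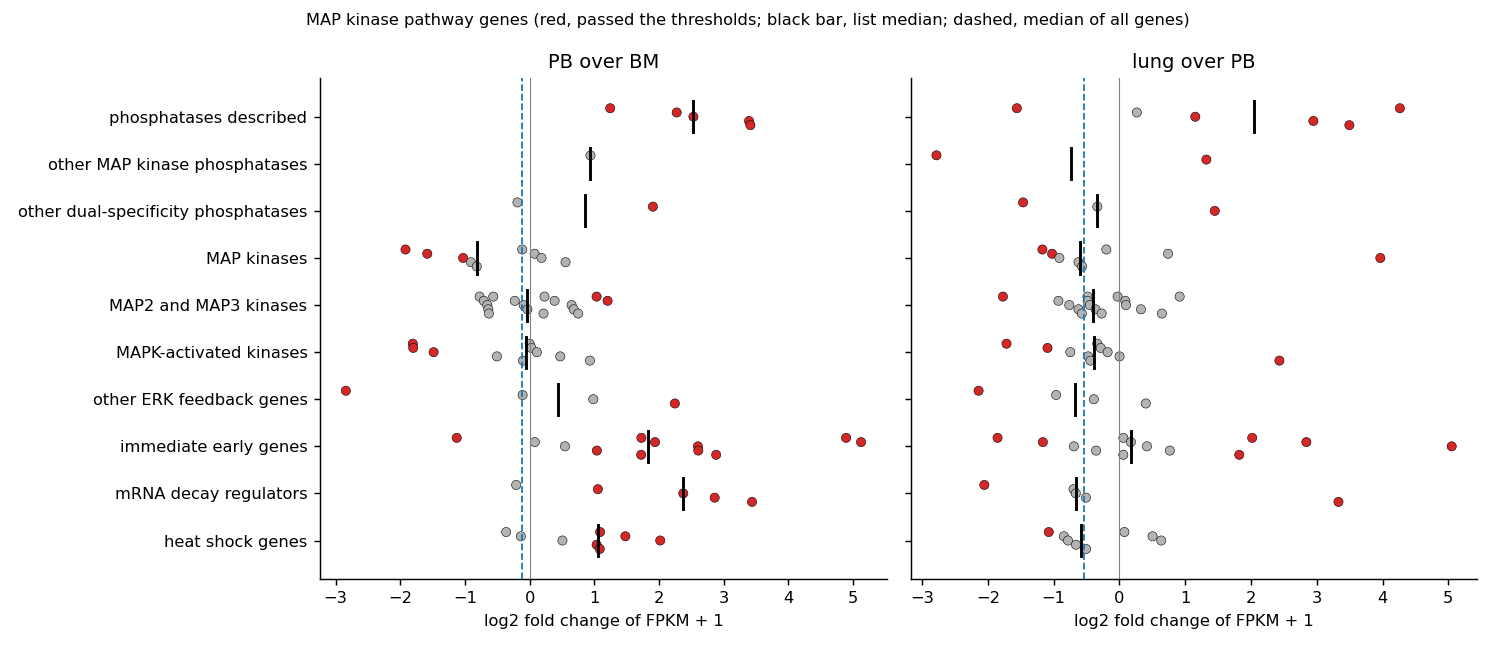
Log2 fold changes of FPKM + 1 for the tested genes of each list in PB over BM (left) and lung over PB (right); red points passed both thresholds, black bars are list medians and the dashed line is the median of all genes. Immediate early genes and the phosphatases lie mostly above 1 in PB over BM, whereas in lung over PB most kinases gather near the median of all genes, with Mapk6 and Mapkapk2 to the right, and Fosl1 lies farthest right among the lists shown.

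Genes with the most similar profiles were found over 8414 genes and the 9 libraries of the tissue comparison, by the root mean square difference of log2(FPKM + 1) after centring. Those nearest to Dusp1 were Csf1, a macrophage growth factor (0.059), and Itga5, an integrin subunit (0.13). Nearest to Dusp2 were the chemokine gene Ccl3 (0.17; 2.76, 46.3 and 773 FPKM in BM, PB and lung) and the endotoxin co-receptor gene Cd14 (0.30). Nearest to Dusp5 were the G protein-coupled receptor gene Gpr35 (0.13) and Gla, a lysosomal galactosidase (0.18), and nearest to Dusp16 were Bcl2a1b (0.21), one of several near-identical copies whose reads may be split, and the checkpoint ligand gene Cd274 (0.27). The transcription factor gene Klf6 was nearest to Dusp6 (0.066, with 129, 318 and 99.9 FPKM in BM, PB and lung), followed by the mitochondrial carrier gene Slc25a30 (0.082). Both were picked for their nearness to Dusp6, so their PB peak follows from that choice. Dusp4, which met the filter through lung alone, lay nearest on this scale to the anti-apoptotic gene Bcl2l1 (0.060) and the deubiquitinase gene Cyld (0.073). The added 1 FPKM shrinks its change, and in FPKM the profiles were unlike. Dusp4 was at 0.022, 0.12 and 1.49 FPKM in BM, PB and lung, against 4.96, 5.25 and 13.9 FPKM for Bcl2l1 and 11.2, 12.8 and 29.6 FPKM for Cyld.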

How the data were processed

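Neutrophil libraries were grouped by the tissue and genotype in their titles: BM, PB and lung of WT mice (3 each), and PB and lung of WT and Piezo1-cKO mice (2 each). Per the labels and the study's methods, the authors trimmed reads with fastp, aligned them to mm10 with HISAT2 and counted them with HTSeq; versions are not given in the sources used here, and the labels and the methods name different library kits. The deposited values are FPKM per gene, made by the authors. The whole-lung libraries of the depletion experiment were not used here, nor were the deposited columns of the authors' own comparisons.

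The 3 tables were joined by NCBI gene number. Tests used limma-trend (limma 3.58.1, R 4.3.3; robust) on log2(FPKM + 1) over genes that reached 1 FPKM in 3 or more libraries of the tissue fits or in 2 or more of the Piezo1 fits, with Benjamini-Hochberg adjustment over all genes tested; genes were called at 0.05 with a log2 difference beyond 1 either way, and for the interaction at 0.05 alone. Fold changes on this scale understate those of low genes. FPKM is relative to each library's total, so a change in other genes moves it. The scripts were tested on simulated data. Named genes were all 8 members and the 2 genes with the nearest profile to each member. Of each pathway list, at most the 4 genes with the largest change among those called in lung over PB or lung over BM were named. Every pathway list gene called by genotype within lung or within PB was named too. Mapk14, Elavl1, Egr2, Egr3, Scgb1a1, Ccr2, Cx3cr1 and Ms4a4c were named outside this rule, after their values were seen. The members and lists were chosen with earlier results of these data known.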

Additional observations from a re-analysis of the deposited data

Results flagged for a closer look

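Dusp2 was flagged because its genotype difference was not the same in lung and PB: Piezo1-cKO over WT was -0.08 in lung and -0.72 in PB on the log2 scale, and the interaction was 0.63 ± 0.11 (SE; limma-trend, adjusted p = 0.00219). Both Piezo1-cKO PB libraries (10.5 and 8.60 FPKM, from 164 and 197 reads) lay under both WT PB libraries (16.7 and 15.8 FPKM, from 357 and 385 reads). The same order held for Dusp1 and Dusp16 in PB. Under the alternatives the interaction of Dusp2 lay between 0.49 and 0.76, with adjusted p between 2.57e-05 and 0.0129. It stayed under a fold threshold of 1, and 48.2% of all genes passed the same test, so the call does not set Dusp2 apart from other genes.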

How the results depend on the processing

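Of 511 member values under 8 kinds of alternative, 490 kept their direction and their side of the threshold. The number of members called was 5 in lung over BM, lung over PB and PB over BM, 4 in lung over PB within WT and within Piezo1-cKO, 0 by genotype in either tissue and 1 for the interaction; with a replicate block, these numbers were the same in every comparison. Same-numbered libraries did not deviate together (correlations of -0.089 to 0.055 among BM, PB and lung, and of -0.016 to 0.079 among the Piezo1 libraries), so the numbers were not read as pairs. With the adjusted p alone, 1 member was called by genotype in lung and 3 in PB, and with the fold threshold added none was called for the interaction. Without a filter 2 members were called for the interaction, Dusp2 and Dusp3, and after rescaling by the median ratio 3, Dusp1, Dusp2 and Dusp6. Leaving out 1 library, with the genes of the full fit and the spread pooled, gave 1 to 2 for the interaction: 2 without Piezo1-cKO PB replicate 1 (Dusp1 added) and 2 without replicate 2 (Dusp5 added); no other count of members moved. Of 6 changes of sign, 2 had an adjusted p below 0.05 on either side, both under rescaling: Dusp6 in lung over BM, from -0.31 to 0.51, and Dusp5 by genotype in lung, from 0.02 to -0.092. The other 4 had neither: under rescaling, Dusp6 and Dusp16 by genotype in lung (-0.049 and -0.052) and the interaction of Dusp16 (-0.037), and Dusp5 by genotype in lung without WT lung replicate 2 (-0.016). The cause of these changes was not tested. With limma-voom on the recovered reads the members called were the same in number, while 378 genes in lung and 735 in PB were called by genotype against 64 and 265. Within the separate WT libraries that accompany the Piezo1-cKO ones, lung over PB called 4 members; Dusp4 did not pass the filter there. Depth limits Dusp3, Dusp4 and Dusp10, which had 0 to 68 reads per library.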
